A study of Mus musculus with 12 samples.

Results

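The genes described here are 10 markers of tanycytes and hypothalamic progenitors, namely Rax, Gpr50, Vim, Nes, Lhx2, Crym, Sox2, Fgf10, Cd59a and Hes5. They were taken as a fixed list of symbols and matched to the gene column of the deposited count table, where all 10 were found among 43280 rows. Hypothalamus was collected on postnatal day 6 from 12 male C57/Bl6 pups, 6 of them controls and 6 subjected to modified maternal separation (MMS), with 1 library of 3' mRNA reads from each pup. MMS pups were kept apart from the dam on a heating pad for a daily session on the last days before collection and were turned onto their backs whenever they righted themselves, and the other males of their litters served as controls. Since the labels do not say which litter a library came from, pups were treated as independent, and p-values measure the spread between pups. The dissection took the whole hypothalamus, in which tanycytes are a minority, and in such bulk tissue fewer cells of a type and less RNA per cell cannot be told apart.

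Tanycytes are elongated glial cells that line the floor and lower walls of the third ventricle and send a long process into the hypothalamus. They descend from embryonic radial glia, keep part of that programme after birth, and include cells that can give rise to neurons and astrocytes. Their identity is set by homeodomain factors such as Rax and Lhx2, and Notch signalling through Hes genes holds progenitors in the undifferentiated state. Several of the listed genes are shared with other cells. Hes5 and Sox2 are also active in astrocytes, Sox2 in oligodendrocyte precursors, Vim and Nes in blood vessels, and Lhx2 in the developing cortex.

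Values are CPM, a gene's share of the counts of its library brought to a common library size, with totals scaled by edgeR's TMM factors. A 3' library yields about 1 read per captured transcript whatever its length, so CPM of different genes were set side by side without a length term. Control libraries held 3765759 to 6560620 counts, and MMS libraries 3218777 to 5344080. On the first principal component of all tested genes, which held 30.4% of the variance, MMS 2 (57.8) and MMS 4 (46.3) lay far from the remaining 10 (-14.4 to -3.04). The 10 genes and the lists that the results turn on were therefore also fitted without these 2 libraries. All 15 listed markers of hypothalamic neurons passed the count filter, and Pmch, a peptide of the lateral hypothalamus, ranged from 195 to 929 CPM over the 12 libraries. The 7 pituitary markers summed to 29.5 to 78.0 CPM in controls and 38.6 to 69.4 CPM in MMS. Among them Pou1f1 had 0 counts in all libraries, while the hormone genes Cga and Gh reached 23.0 CPM in a control and 26.6 CPM in an MMS library.

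The listed gene with the smallest p-value was Hes5, a transcriptional repressor induced by Notch receptors (chr4:154960923-154962371, plus strand, GRCm38, the mm10 assembly). The 250 bases upstream of its start (chr4:154960673-154960922, plus strand, RefSeq on GRCm38.p6) are shown because Notch acts on this gene through the DNA-binding protein RBPJ, whose recognition letters TTCCCAC, or GTGGGAA on the other strand, are in capitals.
Hes5 upstream: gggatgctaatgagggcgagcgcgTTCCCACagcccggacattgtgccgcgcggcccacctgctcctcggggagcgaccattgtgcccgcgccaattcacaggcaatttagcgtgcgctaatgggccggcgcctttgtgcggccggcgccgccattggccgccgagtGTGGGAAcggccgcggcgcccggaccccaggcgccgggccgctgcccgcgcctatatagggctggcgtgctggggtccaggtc
The matches lay 226 to 220 and 83 to 77 bases upstream of the start. Of 32851 RefSeq windows of this length, 5.42% held at least 1 match and 0.161% held at least 2. Windows for 8 of the 10 listed genes were in the table, and Hes5 was the only 1 of them with a match. A match is a run of letters and was not tested for binding.

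The levels of the 10 genes spanned over 2 orders of magnitude. Hes5 was the most abundant at 284 ± 65.9 CPM (SD, n = 12), followed by Sox2 at 91.4 ± 13.3 CPM and Vim at 60.8 ± 14.4 CPM. In all 12 libraries Hes5 lay above Sox2, Sox2 above Vim, and Vim above Crym. Below these the order was not firm. Crym (18.1 ± 10.998 CPM) lay above Nes (11.3 ± 2.47 CPM) in 7 of 12 libraries. Nes lay above Lhx2 (8.68 ± 2.63 CPM) in 10, and Lhx2 above Cd59a (7.53 ± 3.13 CPM) in 9. The mean of Cd59a was above that of Gpr50 (7.18 ± 2.55 CPM), although it was the higher of the pair in 4 libraries. Gpr50 lay above Fgf10 (3.05 ± 1.44 CPM) in 11 libraries, and Fgf10 above Rax (2.33 ± 1.80 CPM) in 7. Hes5, Sox2 and Vim are genes shared with other cell types, and the gene most restricted to tanycytes, Rax, was the least abundant.

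The genes also differed in how far libraries spread. The coefficient of variation over the 12 libraries was 14.5% for Sox2 and 23.2% for Hes5, where counting error alone gives 4.89% and 2.77%. It was 60.8% for Crym against 10.6% from counting. For Rax it was 77.0% against 30.04%, and for Fgf10 47.2% against 26.6%. Nes varied by 21.9% where counting gives 13.9%. All 10 genes thus varied more between libraries than counting alone gives. These values pool both groups, so any difference between the groups is part of them. Within controls the coefficient was 11.6% for Sox2 and 8.68% for Hes5, and within MMS it was 15.3% and 26.7%.

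**Figure D1:**
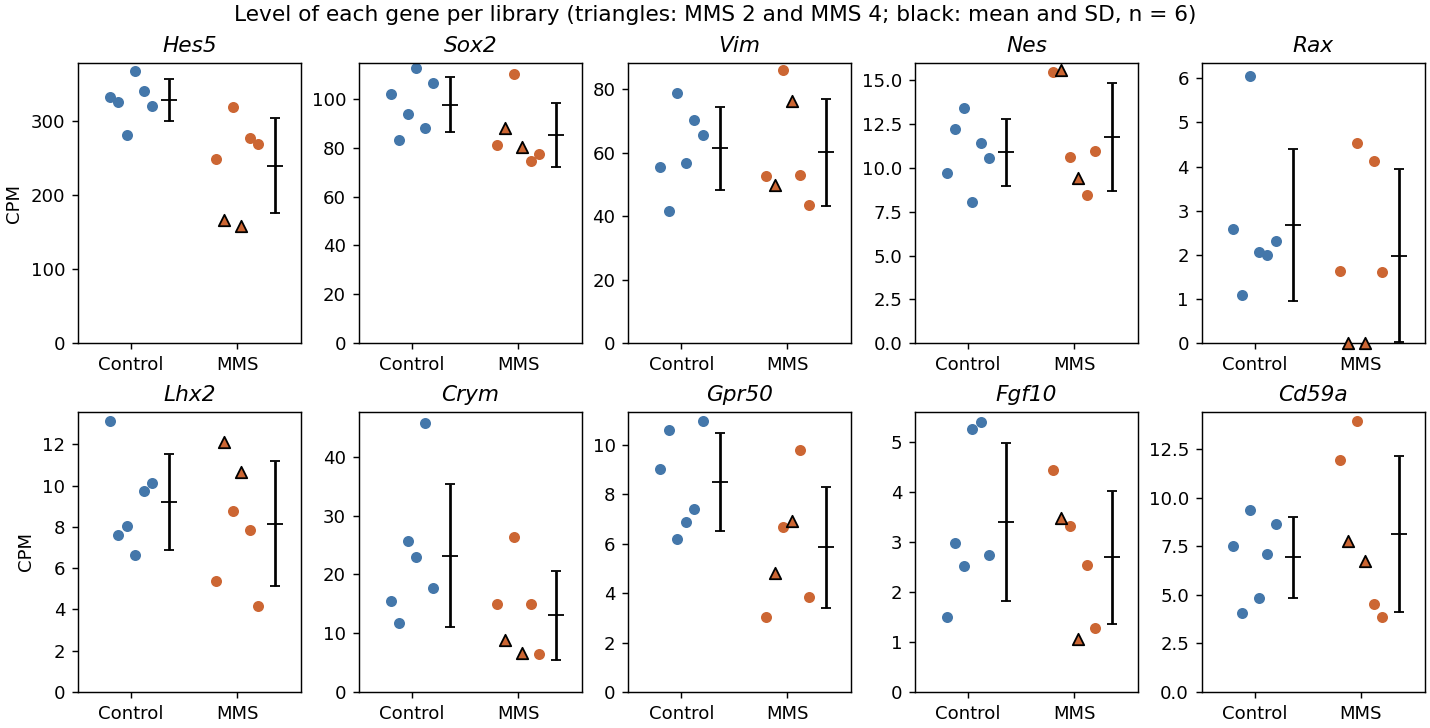
CPM of each of the 10 genes in the 6 control (blue) and 6 MMS (orange) libraries, with the mean and SD of each group in black and MMS 2 and MMS 4 as triangles. Hes5 lies between 281 and 368 CPM in controls and between 159 and 318 CPM in MMS, and Rax is at 0 in MMS 2 and MMS 4.

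The comparison of MMS with control pups asked whether these genes differed after the stress. With edgeR's quasi-likelihood test, 0 of the 9 listed genes that passed the count filter had a Benjamini-Hochberg adjusted p under 0.05, as for all 13104 genes tested (0%). At an unadjusted p under 0.05 there were 2 of the 9, Hes5 and Crym, both lower in MMS. Of all tested genes 9.08% were at that level, 4.4% lower and 4.68% higher. With DESeq2 the 2 genes stayed short of the threshold as well (adjusted p = 0.376 for Hes5 and 0.433 for Crym), and 7 genes in the table passed it. Of the 9, 7 had a negative and 2 a positive log2 fold change, with a median of -0.20. Over all tested genes the median was 0.0009, and 49.9% were negative. In none of the 10 genes were the groups free of overlap, which 0.389% of tested genes were. With so few members these counts are descriptions.

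Hes5 ranged from 281 to 368 CPM in controls, with a median of 329 CPM. In MMS pups it ranged from 159 to 318 CPM, with a median of 259 CPM. All 6 MMS libraries lay below the control median and 5 of 6 below the lowest control. Controls averaged 328 ± 28.5 CPM and MMS pups 240 ± 64.0 CPM (SD, n = 6 per group). The log2 fold change was -0.45 (95% interval -0.75 to -0.15; edgeR unadjusted p = 0.00542, adjusted p = 0.543), which corresponds to 0.731 times the control level.

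Hes5 was lowest in MMS 4 (159 CPM) and MMS 2 (167 CPM), and the other 4 MMS libraries ranged from 248 to 318 CPM. Without MMS 2 and MMS 4 the log2 fold change was -0.23 (95% interval -0.43 to -0.04), with an unadjusted p of 0.0222 in edgeR and an adjusted p of 0.961. In that fit 2.62% of 13407 tested genes were lower at an unadjusted p under 0.05 and 2.41% were higher. Both libraries lay below all other 10 libraries in Hes5, as they did in 15.1% of all tested genes. Hes5 overlaps the gene model Gm20421 on the opposite strand, and the strand setting of the counting is not given in the sources used here.

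Other parts of the Notch pathway were on both sides of 0. Of 23 tested genes of the list 12 were higher and 11 lower in MMS, with a median of 0.03. At an unadjusted p under 0.05 there was 1 gene of the list, where 9.08% of all tested genes were. That gene was the receptor Notch1, at 20.6 ± 2.58 CPM in controls and 14.9 ± 3.36 CPM in MMS (log2 fold change -0.45, SE 0.17; edgeR adjusted p = 0.543). Its MMS values were not lowest in the libraries that were lowest in Hes5, with 16.7 CPM in MMS 2 and 15.4 CPM in MMS 4 and a range of 10.6 to 19.9 CPM in the other 4. The receptor Notch3 was at 55.1 CPM in controls and 60.7 CPM in MMS (log2 fold change 0.14, edgeR adjusted p = 0.717). Hes1, a repressor related to Hes5, was at -0.38 on the log2 scale (SE 0.19; edgeR adjusted p = 0.556), and RBPJ itself, encoded by Rbpj, of -0.05 (adjusted p = 0.936). The coactivator Maml2 was at 0.36 (SE 0.20; adjusted p = 0.570). Without MMS 2 and MMS 4, 4 genes of the list were at an unadjusted p under 0.05, Notch1 and Hes1 lower and Notch3 and Lfng higher, where 5.03% of all genes were.

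Sox2, a transcription factor that keeps progenitors undifferentiated, lies at chr3:34650405-34652461 on the plus strand. It ranged from 83.1 to 113 CPM in controls, with a median of 97.7 CPM, and from 74.7 to 110 CPM in MMS, with a median of 80.7 CPM. The values of 4 MMS libraries lay below the lowest control, and MMS 3 (110 CPM) lay near the highest. The log2 fold change was -0.20 (95% interval -0.43 to 0.04; edgeR adjusted p = 0.590) and was -0.18 without MMS 2 and MMS 4. The interval leaves out a drop below 0.740 times the control level. Sox2 lies inside the long noncoding RNA Sox2ot on the same strand, so reads of either could have been counted here.

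Of 22 tested genes of the wider list of neural progenitors and radial glia, 15 were lower and 7 higher, with a median of -0.15, and of -0.06 without MMS 2 and MMS 4. At an unadjusted p under 0.05 there were 3 lower and 1 higher, where 4.4% of all tested genes were lower and 4.68% higher. The smallest p-value was that of Ccnd2, a cyclin that drives progenitors into the cell cycle, at 90.3 ± 9.20 CPM in controls and 63.7 ± 12.1 CPM in MMS. All MMS libraries lay at or below 77.6 CPM, under the lowest control at 82.3 CPM (log2 fold change -0.51, SE 0.13; edgeR adjusted p = 0.385). Id3, an inhibitor of differentiation factors, followed with -0.35 (SE 0.12; adjusted p = 0.543). Pax6, a progenitor transcription factor that also marks some diencephalic neurons, was on the other side at 1.13 (SE 0.40; adjusted p = 0.543). Pax6 was highest in MMS 2 (25.0 CPM) and MMS 4 (23.1 CPM), above all controls (1.23 to 11.6 CPM), and without them its log2 fold change was 0.69 (edgeR unadjusted p = 0.109). Ccnd2 was at -0.36 without them, with an unadjusted p of 0.00213 in edgeR. In the same 2 libraries Sox9, a glial progenitor factor, was at 128 and 130 CPM, below the control range of 304 to 407 CPM. Sox9 was also at an unadjusted p under 0.05 and lower in MMS (log2 fold change -0.54, edgeR adjusted p = 0.544), and was at -0.21 without these 2 libraries. In that fit 4 genes of the list were lower and 0 higher at an unadjusted p under 0.05, where 2.62% of all genes were lower and 2.41% higher.

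The intermediate filament genes Vim (chr2:13573927-13582826, plus strand) and Nes (chr3:87971078-87980451, plus strand), which build the cytoskeleton of radial glia and of the tanycyte process, were close to level. Vim ranged from 41.6 to 78.8 CPM in controls (median 61.3 CPM) and from 43.5 to 86.0 CPM in MMS (median 52.8 CPM), so the groups overlapped almost throughout. Its log2 fold change was -0.03 (95% interval -0.39 to 0.32; edgeR adjusted p = 0.954), and its sign depended on which libraries were included. Nes ranged from 8.02 to 13.4 CPM in controls (median 10.97 CPM) and from 8.43 to 15.6 CPM in MMS (median 10.8 CPM). Nes had a log2 fold change of 0.10 (95% interval -0.32 to 0.52; edgeR adjusted p = 0.886), and -0.09 with the ependymal score described below as a covariate. For Vim the interval covers 0.764 to 1.25 times the control level and for Nes 0.802 to 1.43 times. Of 10 other intermediate filament genes 0 were at an unadjusted p under 0.05 in edgeR (1 with DESeq2), where 9.08% of all tested genes were in edgeR. Their median log2 fold change was 0.11. The smallest p-value among them was that of Ina, a neuronal filament gene, at 0.17 (SE 0.09; adjusted p = 0.582).

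**Figure D2:**
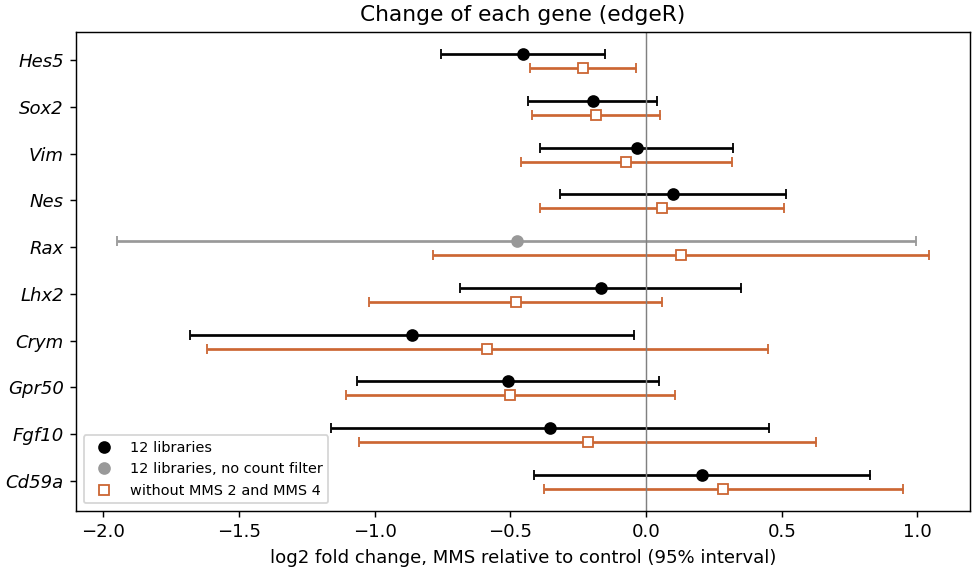
Log2 fold change of each gene, MMS relative to control, with its 95% interval from edgeR over 12 libraries (filled) and without MMS 2 and MMS 4 (open). The intervals of Hes5 (-0.75 to -0.15) and Crym (-1.68 to -0.04) over 12 libraries lie below 0, and the value of Rax over 12 libraries, in grey, was fitted without the count filter.

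Rax, the homeodomain factor most restricted to tanycytes in the adult hypothalamus, had 133 counts in all and did not pass the count filter. Controls ranged from 1.09 to 6.04 CPM, with a median of 2.19 CPM. MMS libraries ranged from 0 to 4.54 CPM, with a median of 1.62 CPM. Rax had 0 counts in MMS 2 and MMS 4, which allows up to 0.806 and 0.532 CPM (3 counts, counting error only). Every other library had between 4 and 36 counts.

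Rax averaged 2.68 ± 1.72 CPM in controls and 1.98 ± 1.96 CPM in MMS (SD, n = 6 per group), with a p of 0.537 in a two-sided exact permutation test. Fitted without the count filter, Rax was at -0.48 on the log2 scale (SE 0.69; edgeR adjusted p = 0.818), and -0.05 without control 3, the highest library. Without MMS 2 and MMS 4 it turned to 0.13, and the other 4 MMS libraries averaged 2.98 ± 1.57 CPM. Rax overlaps the noncoding gene Raxos1 on the opposite strand. The 15 markers of hypothalamic neurons went both ways in MMS 2 and MMS 4. In both libraries 5 of them (Agrp, Hmx3, Npy, Nr5a1 and Pomc) lay below all controls, 2 (Hmx2 and Pmch) above all controls, and 8 neither. By the stricter rule of all other 10 libraries, both lay below in 15.1% and above in 14.6% of all tested genes. The share against controls alone was not taken, so these counts are descriptions. The summed level of the 15 was 1426 CPM in MMS 2 and 1547 CPM in MMS 4, within the control range of 1040 to 1904 CPM. Among the 5, Agrp, a peptide of the arcuate nucleus, was at 0 and 0.709 CPM (controls 2.72 to 34.3 CPM), and Nr5a1, a ventromedial factor, at 1.34 and 0 CPM (controls 2.37 to 9.41 CPM). Fezf1, another ventromedial factor, was at 36.5 and 24.3 CPM (controls 18.3 to 29.3 CPM). Their part in the Rax values was not tested.

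Lhx2, a LIM homeodomain factor that acts with Rax in tanycyte development (chr2:38339281-38369733, plus strand), did not share the low values of Rax in those 2 libraries. It ranged from 6.65 to 13.1 CPM in controls (median 8.89 CPM) and from 4.19 to 12.1 CPM in MMS (median 8.31 CPM). MMS 2 (12.1 CPM) and MMS 4 (10.6 CPM) held the highest of all 12 values after control 1. Lhx2 had a log2 fold change of -0.17 (95% interval -0.69 to 0.35; edgeR adjusted p = 0.839). Without these 2 libraries it was -0.48 (95% interval -1.02 to 0.06; adjusted p = 0.961), since the other 4 MMS libraries averaged 6.55 ± 2.13 CPM against 9.21 ± 2.32 CPM in controls. The summed CPM of 7 telencephalic markers was 125 in MMS 2 and 99.3 in MMS 4, against 87.9 to 112 in controls and 73.9 to 110 in the other MMS libraries. Their part in the Lhx2 values was not tested. Among 11 LIM homeodomain genes and their partners, 5 were higher and 6 lower, with a median of -0.07. At an unadjusted p under 0.05 were Lhx1 at -0.50 (SE 0.20) and Lmo1 at 0.46 (SE 0.21), both with an edgeR adjusted p of 0.543. Of all tested genes 4.4% were lower and 4.68% higher at that level. Neither Lhx1 nor Lmo1 was at that level without MMS 2 and MMS 4.

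Crym encodes a cytosolic protein that binds thyroid hormone and is an established tanycyte marker, although some forebrain neurons use it as well (chr7:120186380-120202111, minus strand). Controls ranged from 11.7 to 45.7 CPM, with a median of 20.3 CPM. MMS libraries ranged from 6.44 to 26.3 CPM, with a median of 11.9 CPM. The highest value was that of control 5, and Crym was lowest in MMS 6 (6.44 CPM), MMS 4 (6.56 CPM) and MMS 2 (8.86 CPM), 3 libraries below the lowest control.

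The log2 fold change of Crym was -0.86 (95% interval -1.68 to -0.04; edgeR unadjusted p = 0.0404, adjusted p = 0.543), the largest in size among the 9 tested members. Crym averaged 23.2 ± 12.1 CPM in controls and 13.02 ± 7.58 CPM in MMS (SD, n = 6 per group). The value rested on few libraries. Leaving out control 5 gave -0.53 and leaving out MMS 3 gave -1.17. Leaving out both MMS 2 and MMS 4 gave -0.58, where the unadjusted p was 0.232 in edgeR.

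Gpr50, an orphan receptor related to the melatonin receptors and enriched in tanycytes and the dorsomedial nucleus, lies at chrX:71663667-71669257 on the plus strand. It ranged from 6.21 to 10.96 CPM in controls (median 8.22 CPM) and from 3.04 to 9.81 CPM in MMS (median 5.75 CPM). The 3 lowest MMS values, those of MMS 1 (3.04 CPM), MMS 6 (3.86 CPM) and MMS 2 (4.84 CPM), lay below all controls. Gpr50 had a log2 fold change of -0.51 (95% interval -1.07 to 0.05; edgeR adjusted p = 0.564) and -0.50 without MMS 2 and MMS 4. Unlike Hes5, Gpr50 was thus not lowest in those 2 libraries.

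Cd59a encodes a membrane inhibitor of complement and marks tanycytes of the ventricular wall (chr2:104095801-104115354, plus strand). It ranged from 4.08 to 9.39 CPM in controls (median 7.31 CPM) and from 3.86 to 13.9 CPM in MMS (median 7.27 CPM). MMS values lay above and below those of controls, with MMS 3 (13.9 CPM) and MMS 1 (11.9 CPM) above all of them. Cd59a was at 0.21 on the log2 scale (95% interval -0.41 to 0.83; edgeR adjusted p = 0.833). Without MMS 3 it was 0.0003, so the difference rested on that library. The adjacent paralog Cd59b (chr2:104069849-104091187) had 36 counts over all libraries against 413 for Cd59a, and reads shared by the pair could have been counted in either.

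Fgf10, a growth factor ligand made by tanycytes of the ventricle floor, lies at chr13:118669791-118792115 on the plus strand and rested on 170 counts. It ranged from 1.51 to 5.40 CPM in controls (median 2.86 CPM) and from 1.06 to 4.45 CPM in MMS (median 2.94 CPM). Its log2 fold change was -0.35 (95% interval -1.16 to 0.45; edgeR adjusted p = 0.773), an interval of 0.447 to 1.37 times the control level, and was -0.21 without MMS 2 and MMS 4. Of 20 tested genes of FGF signalling 14 were higher and 6 lower, with a median of 0.10. Spry2, a feedback inhibitor of FGF receptors, was at -0.44 (SE 0.14; adjusted p = 0.521) and at 34.7 and 40.1 CPM in MMS 2 and MMS 4, below the controls (56.2 to 76.1 CPM). Fgf12, an intracellular FGF homologue of neurons, was at 0.41 (SE 0.15; edgeR adjusted p = 0.543), with its highest values again in those libraries (77.1 and 77.9 CPM). Without them Spry2 was at -0.27 and Fgf12 at 0.11, with an unadjusted p of 0.0324 and 0.357 in edgeR.

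Further tanycyte genes were taken from a list of 18, of which 17 were in the table and 16 were tested. Of these 11 were lower and 5 higher, with a median of -0.08. At an unadjusted p under 0.05 there were 2 lower and 0 higher, where 4.4% of all tested genes were lower and 4.68% higher. Ppp1r1b, a phosphatase inhibitor found in tanycytes and in striatal neurons, was at 5.16 ± 2.99 CPM in controls and 2.48 ± 1.70 CPM in MMS (log2 fold change -1.07, SE 0.42; edgeR adjusted p = 0.543). Cntfr, the receptor of ciliary neurotrophic factor, was at -0.44 (SE 0.20; adjusted p = 0.544), and Mia at -0.62 (SE 0.30; adjusted p = 0.552). Without MMS 2 and MMS 4 Ppp1r1b was at -0.65, Cntfr at -0.26 and Mia at -0.92, and of the 3 only Mia had an unadjusted p under 0.05 in edgeR (0.00857). In that fit 11 were again lower and 5 higher, with a median of -0.11. Of them 2 were lower and 1 higher at an unadjusted p under 0.05, where 2.62% of all genes were lower and 2.41% higher. Besides Mia, Slco1c1, a thyroid hormone transporter, was lower at -0.51 (edgeR unadjusted p = 0.00858), against -0.08 over 12 libraries. Adm, which encodes the peptide adrenomedullin, was higher at 1.34 (edgeR unadjusted p = 0.0106). Dio2, which activates thyroid hormone in tanycytes, was at 4.03 CPM in MMS 2 and 5.68 CPM in MMS 4, with a range of 4.35 to 20.6 CPM in controls (log2 fold change -0.08, edgeR adjusted p = 0.959). Without those libraries Dio2 was on the other side, at 0.31 (edgeR adjusted p = 0.964).

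**Figure D3:**
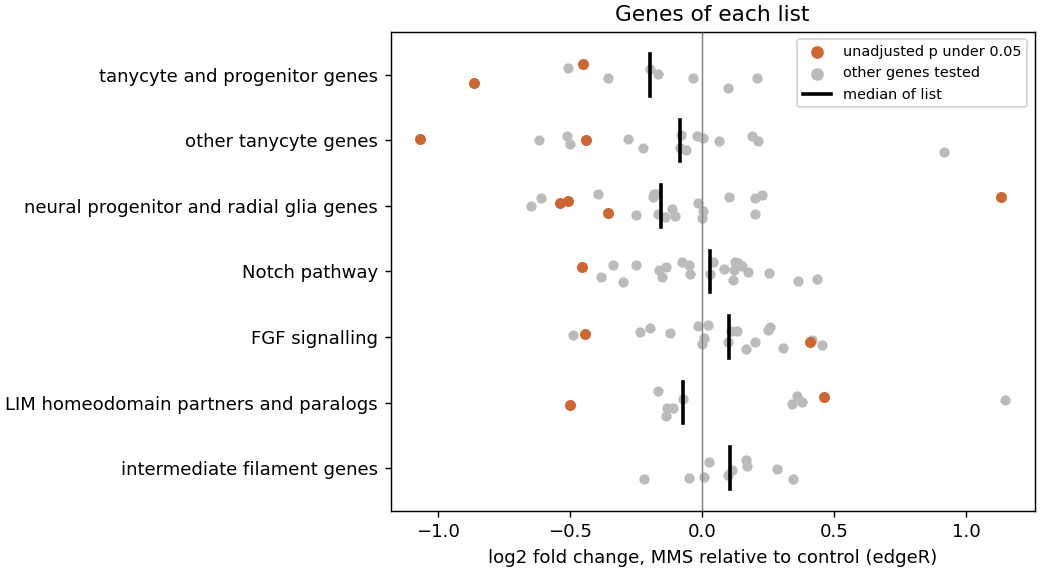
Log2 fold change of every tested gene in the 10-gene list and in the 6 related lists, MMS relative to control, with genes at an unadjusted p under 0.05 in orange and the median of each list as a black bar. The medians run from -0.20 for the tanycyte and progenitor genes to 0.11 for the intermediate filament genes.

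Markers of other cells were measured in the same libraries. The summed CPM of 14 ependymal cilia markers, whose cells line the ventricle next to tanycytes, ranged from 113 to 240 in controls, was 35.996 in MMS 2 and 60.8 in MMS 4, and ranged from 117 to 238 in the other MMS libraries. Of 11 tested, 11 were lower in MMS, and Ccdc153, Tmem212 and Hydin were at 0 in MMS 2. At an unadjusted p under 0.05 were 2 of the 11, where 4.4% of all tested genes were lower at that level. Without MMS 2 and MMS 4 the same test had 7 lower and 4 higher, and the median log2 fold change moved from -0.58 to -0.26. In that fit 2 were lower and 0 higher at an unadjusted p under 0.05, where 2.62% of all genes were lower and 2.41% higher. For 9 astrocyte markers the sum lay between 1739 and 2093 in controls and between 2236 and 2422 in MMS. Of the 9, 4 were higher and 0 lower at an unadjusted p under 0.05 in edgeR, where 4.68% of all tested genes were higher. Without MMS 2 and MMS 4, 4 were again higher at that level, where 2.41% of all genes were. Endothelial and pericyte markers (11 genes), which share Vim and Nes, summed to 251.1 to 303 in controls and 204 to 314 in MMS. Markers of the oligodendrocyte lineage (9 genes) summed to 732 to 1080 in controls and 799 to 1082 in MMS. Choroid plexus markers (7 genes) summed to 15.1 to 1789 in controls (mean 318) and 13.2 to 22.5 in MMS (mean 18.5). Thalamic markers (7 genes) summed to 171 to 840 in controls and 299 to 711 in MMS. For meninges and fibroblasts (8 genes) the sums were 219 to 443 and 96.3 to 500, in the same order. For red blood cells (5 genes) they were 850 to 1534 and 616 to 1499. The part of these cell types in the values of the listed genes was not tested.

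The listed genes were then compared with each other across libraries. Because MMS 2 and MMS 4 stood apart, correlations used the other 10 libraries and 36 pairs of the 9 tested genes. Of these pairs 28 had a positive Pearson r, with a median of 0.31 and a range of -0.56 to 0.80. By Pearson's r 0 pairs had an adjusted permutation p under 0.05, and by Spearman's rho 1 had. That pair was Vim and Crym, with r = 0.80 (permutation p = 0.00490, adjusted 0.176) and rho = 0.93 (permutation p = 0.00034, adjusted 0.0122). Dropping the 2 libraries with the most extreme Vim levels gave r = 0.85. Over all 12 libraries the pair had r = 0.52 (permutation p = 0.0842, adjusted 0.433) and rho = 0.67 (permutation p = 0.0203, adjusted 0.216), so the call was lost. Sox2 and Hes5 had r = 0.69 (permutation p = 0.0310, adjusted 0.223) and rho = 0.65 (permutation p = 0.0489, adjusted 0.352), and r = 0.58 on dropping the 2 libraries with the most extreme Sox2 levels. Gpr50 and Lhx2 had r = 0.74 (permutation p = 0.0151, adjusted 0.182) and rho = 0.56 (permutation p = 0.0975, adjusted 0.420). On dropping the 2 libraries with the most extreme Gpr50 levels r was 0.26. Dropping extreme libraries narrows the range and can lower r by itself, so this does not settle whether the pair rested on them.

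An ependymal score, the mean over the tested ependymal cilia markers of log2 CPM scaled to an SD of 1, was set against the 9 genes in the same 10 libraries. Nes ran against it, with r = -0.70 (permutation p = 0.0264, adjusted 0.214) and rho = -0.83 (permutation p = 0.00465, adjusted 0.0418), and r = -0.50 on dropping the 2 libraries with the most extreme Nes levels. Over all 12 libraries this call was lost as well, with r = -0.57 (permutation p = 0.0501, adjusted 0.225) and rho = -0.63 (permutation p = 0.0317, adjusted 0.143). For Hes5, r was 0.41 (permutation p = 0.233, adjusted 0.419) and rho was 0.48 (permutation p = 0.166, adjusted 0.299), and r turned to -0.15 on dropping the 2 most extreme libraries. For Gpr50 r was 0.60 (permutation p = 0.0663, adjusted 0.214) and rho was 0.52 (permutation p = 0.133, adjusted 0.299), with r = 0.07 on dropping its 2 most extreme libraries. Over all 12 libraries Hes5 had r = 0.84 (permutation p = 0.00256, adjusted 0.0230) and rho = 0.69 (permutation p = 0.0157, adjusted 0.141), a value in which MMS 2 and MMS 4 lie apart from the rest at low levels of both. Among the 10 libraries a relation was neither shown nor excluded. Control and MMS libraries were pooled here, which leaves any shared difference between the groups in the correlations.

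**Figure D4:**
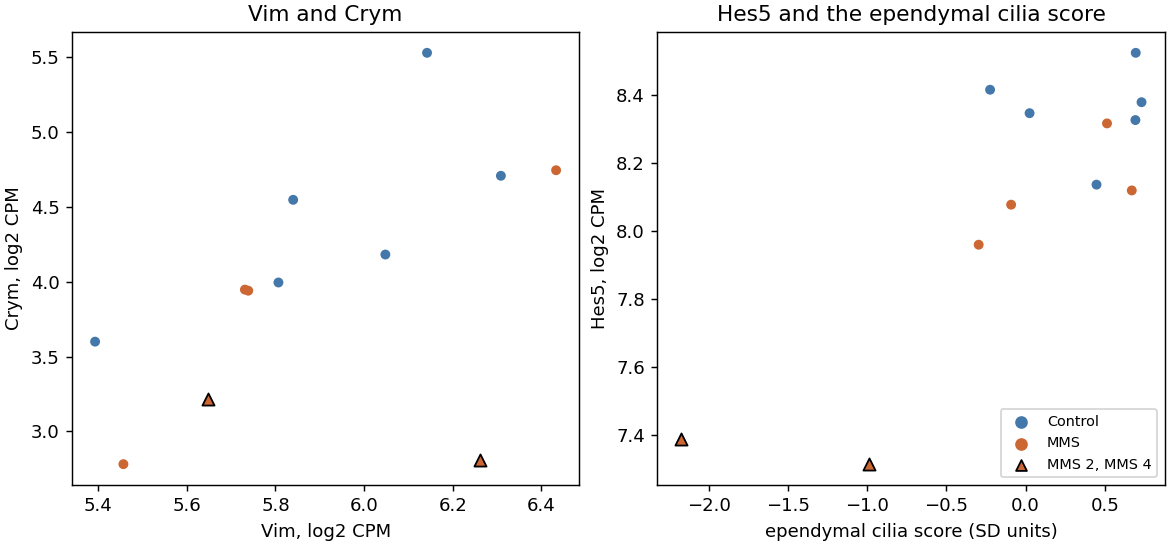
Log2 CPM of Crym against Vim (left) and of Hes5 against the ependymal cilia score in SD units (right), with 1 point per library in blue for control and orange for MMS and triangles for MMS 2 and MMS 4. The points of Vim and Crym other than the triangles rise together (r = 0.80), and in the right panel the triangles lie apart at the lowest Hes5 levels (167 and 159 CPM).

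The genes whose profile over the 12 libraries was nearest to a member were taken by the mean absolute difference of standardised log2 CPM, among genes with a mean of at least 10 counts. For Rax these were Csnk2a2 (0.197 SD), Upf3b (0.261 SD) and Mcts1 (0.264 SD), where the median gene stood at 1.09 SD. In each of them, MMS 2 and MMS 4 lay below all controls, as in the Rax profile by which these genes were chosen. By the stricter rule of all other 10 libraries, not controls alone, both lay below in 15.1% of all tested genes. For Vim they were Ift20 (0.256 SD), Klf2 (0.318 SD) and Rpl8 (0.348 SD). For Sox2 they were Parp16 (0.429 SD), Chchd6 (0.449 SD) and Bri3bp (0.449 SD), so no gene followed Sox2 as closely as the nearest genes followed Rax and Vim. None of these 9 genes was in a list above.

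**Figure D5:**
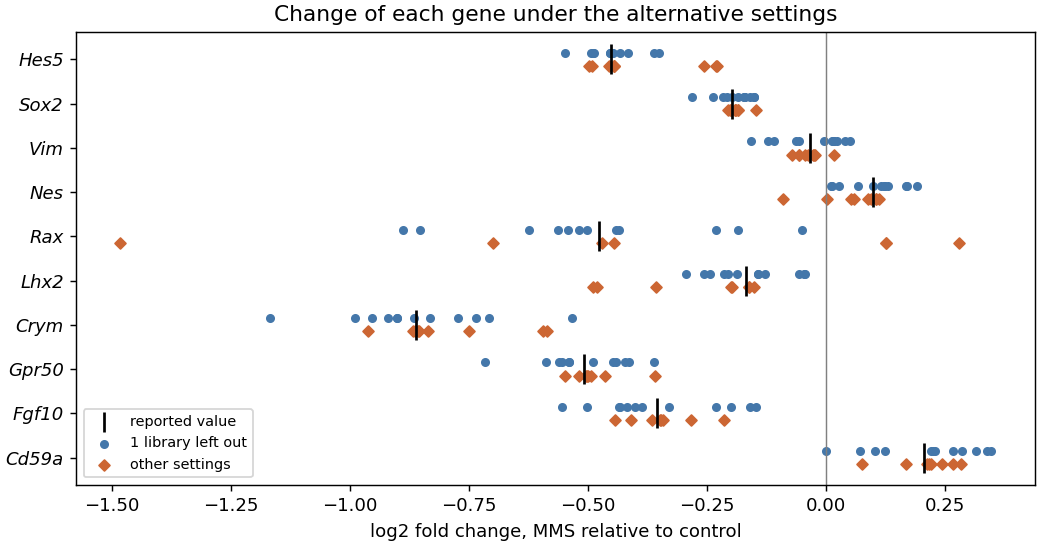
Log2 fold change of each gene, MMS relative to control, as reported (black bar), with 1 library left out (blue points) and under the other settings (orange diamonds). Hes5 stays between -0.55 and -0.23 and Crym between -1.17 and -0.53, while Vim, Nes and Rax have values on both sides of 0.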

How the data were processed

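Per the labels and the study's methods, QuantSeq 3' libraries of hypothalamic RNA were sequenced on an Ion Proton and aligned to mm10 within Torrent Suite. The authors deposited a table of raw counts by gene in which every library had its own column, neither normalized nor pooled. How reads were counted, on which strand and with which annotation, was not stated. Reads without molecular identifiers are not independent molecules, so intervals and floors hold for the counting error alone.

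Libraries were grouped by their titles. Over 30 pairs of libraries of a group the chi-square statistic per degree of freedom was 4.04 to 31.5, so none was a duplicate. Genes were tested in edgeR 4.0.16 (R 4.3.3) with the robust quasi-likelihood test, TMM scaling and the default count filter (minimum count 10, minimum total 15), two-sided, with Benjamini-Hochberg adjustment over 13104 genes. Intervals are 95%. Log2 CPM used a prior count of 2. Correlations used 100000 permutations. DESeq2 1.42.0, limma 3.58.1 and sva 3.50.0 served alternatives, and the script was checked on simulated data. Coordinates are from GENCODE M21 (GRCm38), which held 91.1% of the symbols.

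The 10 genes and all lists were chosen with earlier results of these data known. The genes named are the 10 members, the 3 nearest profiles of Rax, Vim and Sox2, and the up to 3 genes of each related list with the smallest p and on average 10 counts or more. Further genes (Notch3, Rbpj, Lfng, Sox9, Dio2, Slco1c1, Adm, Agrp, Hmx2, Hmx3, Npy, Pomc, Nr5a1, Fezf1, Pmch, Pou1f1, Cga, Gh, Ccdc153, Tmem212, Hydin) were chosen after their values were seen.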

Additional observations from a re-analysis of the deposited data

Results flagged for a closer look

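In the control group, Rax in control 3 (6.04 CPM) stood apart from the other 5 libraries, the nearest of which was at 2.58 CPM. In the MMS group, Sox2 in MMS 3 (110 CPM) stood apart, with the nearest library at 87.8 CPM. Both were marked by Dixon's criterion, which was applied to 20 sets of 6 values, where chance gives about 1.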

How the results depend on the processing

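No listed gene passed the threshold under any alternative, and the smallest adjusted p was 0.240 for Hes5 and 0.284 for Gpr50. Without 1 library Hes5 ran from -0.55 to -0.35, Crym from -1.17 to -0.53, Gpr50 from -0.72 to -0.36, Vim from -0.16 to 0.051, Nes from 0.01 to 0.19 and Rax from -0.89 to -0.05. With the ependymal score as a covariate Vim was 0.017 and Nes -0.090. Rax was 0.13 with that score, 0.13 without MMS 2 and MMS 4, and 0.28 with the surrogate variable. The cause was not tested. Genes past the threshold numbered 7 with DESeq2, 1 without the count filter, 1 with the replicate block, 5 without MMS 2 and MMS 4, 3 with the ependymal score, 4 with a surrogate variable, and 0 to 1 without 1 library. Genes at an unadjusted p under 0.05 numbered 2039 without the filter, 674 without MMS 2 and MMS 4, 501 with the score and 682 with the surrogate variable, and 700 to 1804 without 1 library. With the replicate block Hes5 was -0.49 and Crym -0.87, and no listed gene passed the threshold. The labels tie no number to a litter, and deviations of same-numbered libraries correlated at -0.05 to 0.12. In 2 of 6 numbers (0.116 each) the best match was the own number, too few to take the numbers as pairs. Over all 12 libraries the Spearman count of pairs of members was 0, and with the score 1 gene passed by Pearson's r (Hes5) and 0 by Spearman's rho. Rax and Fgf10 rested on 133 and 170 counts.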
